A study of Bos taurus with 16 samples.

Results

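The cytosolic ribosomal protein genes were examined in RNA-Seq counts from bovine blastocysts. Members were all loci whose gene name has the form RPL, RPS or RPLP followed by a number, with an optional letter or paralog ending, leaving out the ribosomal protein kinases of the RPS6K family. This rule used no measured value. It found 81 loci, bearing 79 gene symbols, of the 22358 loci in the count tables. Of these, 48 belong to the large subunit and 33 to the small subunit. RPS15A and RPL19 each name more than 1 locus. RPL7, RPL39, RPL41 and RPLP2 were not analysed here. The files pair each locus with a gene name but give no coordinates or transcript lengths.

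Each cytosolic ribosome joins a small subunit, which reads the mRNA, to a large subunit, which forms the peptide bond. Each subunit is built on ribosomal RNA and takes up its proteins in fixed numbers, mostly as single copies. Most ribosomal protein mRNAs begin with a terminal oligopyrimidine tract at their 5′ end, through which the mTOR pathway, a sensor of amino acids, controls their translation. In the cattle embryo, transcription from the embryonic genome is active well before the blastocyst stage, and new ribosomes are assembled from that time on.

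The embryos came from Holstein cows fed either a control diet or the same basal diet with added methionine in a form protected from the rumen, from calving until the embryos were collected. The comparison asked whether maternal methionine changed embryo expression. There were 8 cows, 4 per treatment, and the expanded blastocysts of each cow were divided into 2 pools, which gave 8 Control and 8 Methionine pools. By the study's record, most Methionine pools held more blastocysts than any Control pool. Recorded RNA quality was also lower in most Methionine pools than in any Control pool with a value. The part of these differences in the results was not tested. Pools are named here by cow and pool, so that Control 2.1 is the first pool of cow 2. The labels call the tissue in vitro fertilised embryos, whereas the methods of the study describe embryos flushed from superovulated and inseminated cows. By those methods, the cows of both treatments received gonadotropin-releasing hormone, prostaglandin, progesterone inserts, follicle-stimulating hormone and human chorionic gonadotropin. The sequenced cows were chosen by how many embryos they gave and by embryo quality, with a balance of sires. Cow age is not in the labels. The RNA of each pool was amplified before sequencing, and pools from the same cow are not independent, so that the cow was taken as the independent unit in means and SDs.

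Control pool 3.2 had a total of 1745048 counts and was left out of the comparison. The study made the same choice, because few of the uniquely mapped reads of this pool fell on annotated exons. It named an error in library preparation as possible. By its record, the number of reads sequenced for this pool lay within the range of the others. The other 15 pools had 5624126 to 7778414 counts in Control and 5941973 to 7826542 in Methionine, and 3 counts, taken as the limit that 0 counts allow, were worth 0.383 to 0.533 CPM (the count divided by the pool total, times 1000000). Blastocyst markers summed to 2994 to 9915 CPM over the 15 pools. Among them KRT18, a keratin of the trophectoderm, reached 1757 to 6291 CPM, and CDX2, which marks the trophectoderm, reached 0 to 27.3 CPM. SOX17, a hypoblast factor, had no counts in any pool. The sum of 12 leukocyte markers was 2373 CPM in Control 2.1 and at most 31.9 CPM in the other 14 pools used. In Control 2.1 it came mostly from LAPTM5 (1239 CPM), NKG7 (480 CPM), TYROBP (377 CPM), LCP1 (183 CPM) and CD53 (76.6 CPM). The others reached at most 7.65 CPM (CD52) in any of the 15 pools, with PTPRC at most 6.68 CPM and CD3E at 0. Because of this sum, the family's shares, spread, correlation and fold changes are also given without Control 2.1. Markers of cumulus and granulosa cells summed to 2.37 to 69.0 CPM. Of these, CYP19A1 had counts in every pool used, at 1.5 to 57.0 CPM, with the highest value in Control 4.2. INHBA reached 26.3 CPM in Control 2.1 and STAR 12.1 CPM in Control 4.2. FSHR, CYP11A1 and AMH reached at most 2.97 CPM, and FOXL2 and INHA were at 0. Markers of red cells summed to 0 to 45.5 CPM, nearly all of it ALAS2, with HBA at 0 and HBB at most 0.168 CPM. The part of any such other cells in the results below was not tested.

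Ribosomal protein genes took between 18.3% and 28.7% of all counts in each of the 15 pools, and the treatments overlapped over nearly the whole of that range. The Control pools lay at 28.7% and 25.6% for cow 1, 25.9% and 18.5% for cow 2, 23.4% for the remaining pool of cow 3, and 21.8% and 18.9% for cow 4. The Methionine pools lay at 18.3% and 21.8% for cow 5, 20.3% and 25.2% for cow 6, 28.6% and 23.7% for cow 7, and 20.5% and 27.7% for cow 8. The highest and the lowest pool of each treatment were thus almost the same. Over cow means the share was 23.3% ± 2.88 (SD, n = 4 cows) in Control and 23.3% ± 2.55 (SD, n = 4) in Methionine, a difference of 0.0162 percentage points. Leaving out each cow in turn moved this difference from −0.957 to 1.31 percentage points, and without Control 2.1 it was 0.938, all within 1 SD between cows. No test was made on this sum. The pool left out, Control 3.2, had a share of 20.2%, within the range of the others.

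**Figure D1:**
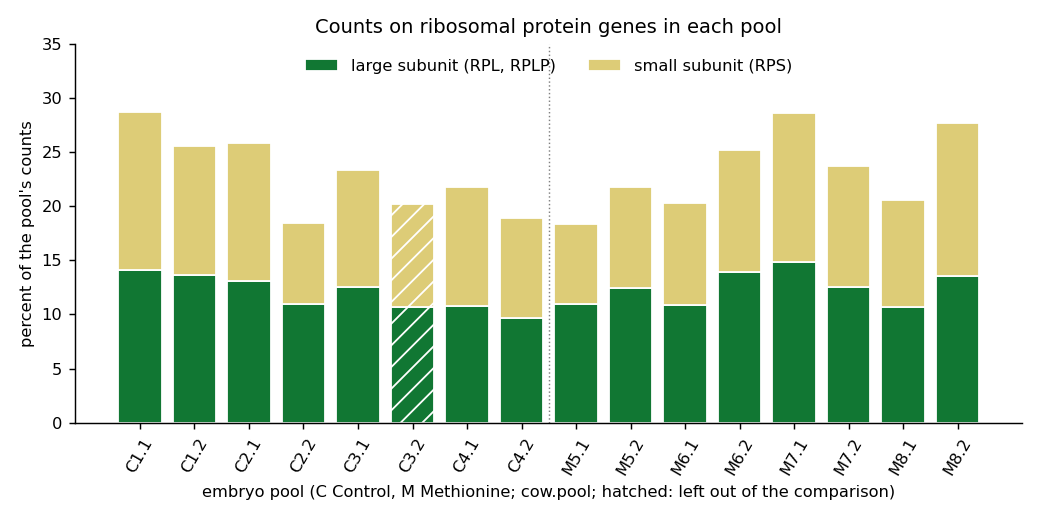
Percent of each pool's counts assigned to large subunit genes (lower, dark segment) and small subunit genes (upper, light segment) in the 16 embryo pools, Control left and Methionine right of the dotted line, with the pool left out of the comparison hatched. The bars of the 15 pools used reach from 18.3% to 28.7%, and both treatments hold pools near each end.

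Large subunit genes took 12.2% ± 1.51 of the counts in Control and 12.5% ± 0.856 in Methionine (SD, n = 4 cows each). Small subunit genes took 11.1% ± 1.49 and 10.8% ± 1.86. The ratio of large to small subunit counts was 1.12 ± 0.102 in Control cows and 1.18 ± 0.168 in Methionine cows. Among pools it ran from 0.966 to 1.46 in Control and from 0.959 to 1.498 in Methionine. The highest ratios were those of Control 2.2 and Methionine 5.1, both of which held less than 8% of their counts in small subunit genes, at 7.53% and 7.34%. Cow 5 had the highest ratio of any cow, at 1.41, and cow 4 the lowest, at 1.02. The difference between treatments was 0.0658, less than 1 SD between cows, and turned to −0.0102 at the lowest when single cows were left out. Without Control 2.1 it was 0.0122. Across the 8 cows, the large and small subunit shares rose and fell together, with Pearson's r of 0.714 and Spearman's rho of 0.905, and r of 0.748 without the 2 cows farthest from the median. Both shares are parts of the same pool totals.

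Ribosomal protein genes held all 10 of the 10 highest loci by mean CPM, and 38 of the highest 100. Mean CPM was above 1000 for 52 members and above 100 for 72. The members with the highest mean CPM took 46.0% of the family's counts between the first 10 of them. RPL23, a large subunit protein, took the most counts of any member in 11 of the 15 pools. It had 12137 to 23716 CPM in Control and 14448 to 23026 CPM in Methionine. The small subunit gene RPS18 took the most in Control 4.2. The next large subunit genes by mean CPM were RPL15 (10073 CPM), RPL36 (9681 CPM), RPL22 (8354 CPM) and RPL36A (7837 CPM). Small subunit genes with high mean CPM included RPS21 (11688 CPM), RPS19 (10032 CPM), RPS18 (8691 CPM) and RPS12 (8487 CPM). These values are not divided by transcript length, so that their order is the order of counts and not of mRNA molecules. Reads of many members can also fall on near-identical processed pseudogenes, and the counting could divide or drop such reads.

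At the other end, RPL10L and RPL3L, paralogs of RPL10 and RPL3 with expression in testis and in striated muscle, had no counts in any pool. The 79 other members had at least 10 counts in every pool used in the comparison. The second locus named RPL19 (XLOC_019891) had 3.48 to 8.24 CPM and the second locus named RPS15A (XLOC_007431) had 4.76 to 14.4 CPM, whereas the main loci of these genes reached 207 to 642 CPM and 2046 to 6267 CPM.

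In these pools, single ribosomal protein genes had a smaller median spread from pool to pool than the loci they were set beside. The SD over the 15 pools of log2 CPM (with 0.5 added to each count) had a median of 0.42 over the members, against 1.33 over all 10519 loci tested and 0.71 over the 3161 loci with an average log2 CPM above 5, of which 77 were members. The bound of 5 still takes in many loci less abundant than most members. Above an average log2 CPM of 10, the median SD was 0.39 over 51 members and 0.55 over 115 other loci, a bound chosen after the data were seen. By subunit, the median was 0.39 for large subunit genes and 0.48 for small subunit genes. Without Control 2.1 the members' median was 0.43. With TMM-normalised totals (TMM, a scaling set by the bulk of loci) the median SD of members was 0.48, against 0.70 for loci above 5. The highest pool exceeded the lowest less than 2-fold for 7 members and more than 4-fold for 16, with a median of 2.84-fold against 5.95-fold for loci above 5. No test was made on these summaries.

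Among the steadiest members were RPL15, with 7409 to 12015 CPM (SD 0.22 on the log2 scale), RPL13A (SD 0.24), RPL11 (SD 0.25) and RPS6 (SD 0.27). RPL11 joins RPL5 and a small ribosomal RNA in the particle that binds MDM2 when ribosome assembly fails, and RPS6 is the substrate that gives the S6 kinases their name. RPL5 itself was less steady, with 642 to 2149 CPM (SD 0.52). Among the most variable members were RPS25, with 10.8 to 159 CPM (SD 1.31), RPL22L1, with 62.2 to 828.5 CPM (SD 1.08), RPL10A, with 17.8 to 154 CPM (SD 0.87), and RPS14, with 266 to 1969 CPM (SD 0.72). The SD of each exceeded the median of loci above 5. RPL22L1 differed between pools of the same cow by a median of 1.38 log2 units and between pools of different cows by 0.95.

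Over the whole family, pools of the same cow were about as far apart as pools of different cows. The median absolute difference of log2 CPM was 0.41 between pools of a cow (7 cows with both pools) and 0.45 between pools of different cows within a treatment (42 pairs of pools), against 1.10 and 1.15 over all loci. Pool Control 1.1 was above a member's own median for 62 of 79 members and was the highest pool for 17. Methionine 6.2 was the highest for 16, and Methionine 8.2 for 13. Methionine 8.1, from the same cow as 8.2, was above the median for 17 members and the lowest pool for 25. Control 2.2 and Control 4.2 were each the lowest for 16 members, and Control 4.2 was also the highest for 10.

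**Figure D2:**
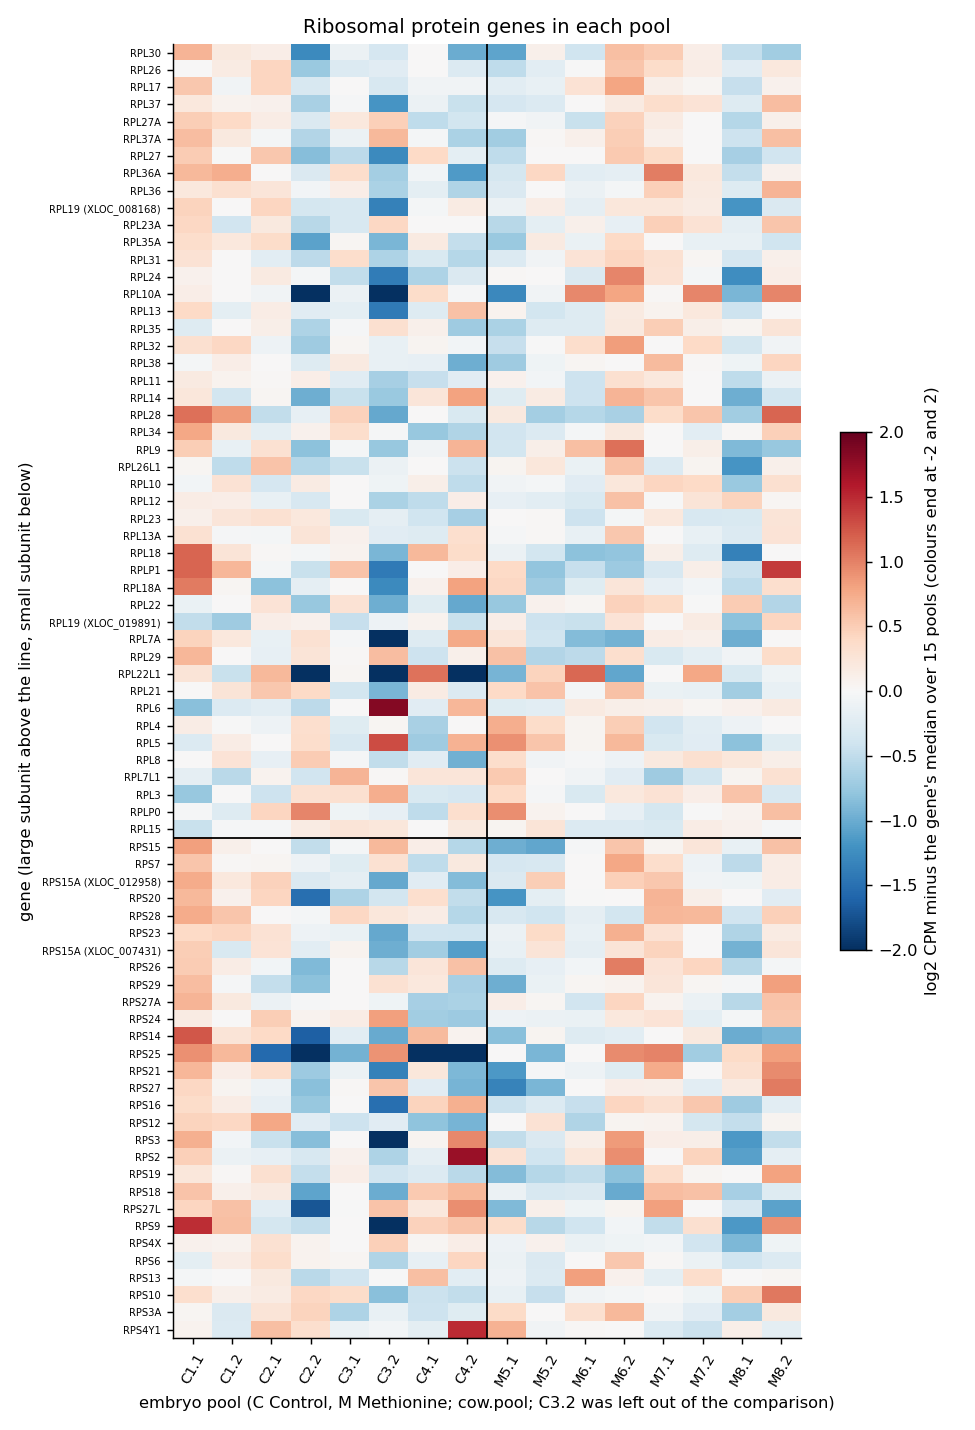
Heat map of 75 ribosomal protein loci with counts (rows, large subunit above the line; a few members not reported here are left out) in 16 pools (columns), coloured by log2 CPM minus the locus's median over the 15 pools used, with colours ending at −2 and 2. Rows run, within each subunit, from the highest to the lowest median rank correlation with the other members, and most of column C1.1 is above the median while most of column M8.1 is below it (62 and 17 of all 79 members were above).

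The members tended to move together from pool to pool, but weakly. Over the 3081 pairs of members, the median Spearman correlation of CPM across the 15 pools was 0.207 and 70.8% of pairs were positive, whereas over pairs of the 3084 other loci above 5 the median was 0.0357 and 54.4% were positive. The median was 0.168 among large subunit genes, 0.268 among small subunit genes and 0.216 between subunits. Above an average log2 CPM of 10 the median was 0.261 among members and 0.00714 among other loci. Without Control 2.1 the members' median was 0.218. The value depended on what the counts were divided by. It was 0.371 with TMM-normalised totals, where other loci had a median of 0.00357, and 0.0357 when each member was divided by the sum of all members. Pools of a cow and the pool total are shared by the points, and the correlations are given as a description.

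RPL30 had the highest median correlation with the other members (0.438), ahead of RPL26 (0.432), RPL17 (0.413) and RPS15 (0.407). For 8 members, picked out after their values were seen, the median correlation was negative. These were RPL15 (−0.325), RPLP0 (−0.261), RPL3 (−0.243), RPS4Y1 (−0.207), RPL7L1 (−0.180), RPL8 (−0.0911), RPL5 (−0.0643) and RPL4 (−0.0536), of which all but RPS4Y1 are in the large subunit or named for one of its proteins. RPL3 and RPL4 are core proteins of the large subunit, with RPL3 reaching close to the peptidyl transferase centre, and RPLP0 is the base of the stalk that recruits translation factors.

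Between treatments, no ribosomal protein gene was called. In the exact test of edgeR, fitted on all loci with 7 Control and 8 Methionine pools, a locus was called at a false discovery rate (FDR) under 0.10 with at least a 2-fold difference. Of the 79 members tested, 0 were called, against 1.05% of all 10519 loci (110 loci). The quasi-likelihood test of edgeR called 0 members and 0 loci of all. DESeq2 called 0 members against 0.637% of all loci, and limma voom, in which the cow was a random effect, called 0 members and 0 loci. At an unadjusted p under 0.05, the exact test, the quasi-likelihood test and DESeq2 each passed 1 member, RPL18, where they passed 8.54%, 8.64% and 7.42% of all loci. limma voom passed 3 members, RPL18, RPS25 and RPL7A, and 4% of all loci. The smallest FDR of a member was 0.285 in the exact test, 0.323 in the quasi-likelihood test, 0.257 in DESeq2 and 0.993 in limma voom. In the exact test 65 members had an FDR of 1.

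The fitted differences of the members were small and fell on both sides. With fold changes given as Methionine over Control, 38 members were higher in Methionine and 41 in Control, and 46.5% of all loci were higher in Methionine. This held 24 of the 46 large subunit genes and 14 of the 33 small subunit genes tested. The median log2 fold change was −0.0062 over the members, −0.0485 over all loci and −0.0074 over loci above 5. Without Control 2.1 the members' median was 0.075. The members ran from −0.80 to 0.86, and 76 of the 79 lay within 0.5 log2 units of 0, as did 54.4% of all loci and 81.9% of loci above 5. No member reached a 2-fold difference, against 24.7% of all loci and 2.63% of loci above 5. The SE of a member's log2 fold change, from DESeq2, had a median of 0.27 and ran from 0.15 to 0.56.

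**Figure D3:**
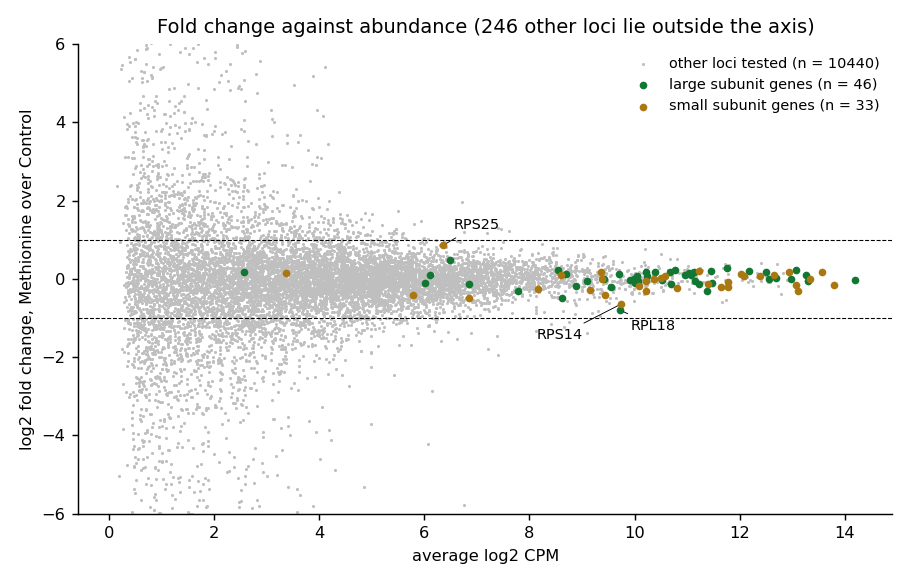
Log2 fold change of Methionine over Control against average log2 CPM for 10519 loci, with large subunit genes in green, small subunit genes in brown and other loci in grey; dashed lines mark 2-fold, and the title gives the number of other loci beyond the axis. All 79 ribosomal protein loci lie between the dashed lines, with RPL18 (−0.80) and RPS25 (0.86) farthest out.

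RPL18, a large subunit protein (XLOC_007629), had the smallest p of the family and was lower in Methionine in these pools. The Control pools had 794 to 1822 CPM with a median of 974, and the Methionine pools had 321 to 883 CPM with a median of 655. By cow, Control lay at 1398, 811, 860 and 1162 CPM and Methionine at 690, 468, 782 and 569 CPM, so that every Control cow was above every Methionine cow, while single pools overlapped. The log2 fold change was −0.80 (SE 0.28), with an unadjusted p of 0.011 and an FDR of 0.285 in the edgeR exact test, and did not pass the threshold. It ran from −0.97 to −0.58 when single cows were left out. The pool left out, Control 3.2, held 433 CPM, below every other Control pool. With it, the mean of its cow would lie below those of the Methionine cows at 690 and 782 CPM. The separation of the cows thus depended on leaving this pool out.

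RPS4X, a small subunit protein encoded on the X chromosome in mammals (XLOC_021643), was the only other member with no overlap between cows. The cow means were 1300, 1394, 1225 and 1300 CPM in Control and 1222, 1134, 1060 and 908 CPM in Methionine. Cow 3 of Control and cow 5 of Methionine differed by little, and pools overlapped. Its log2 fold change was −0.30 (SE 0.17), with an FDR of 0.937 in the edgeR exact test. Thus 2 of 79 members had all Control cows above all Methionine cows, where 1.05% of all loci and 0.696% of loci above 5 did so, and 0 members had the reverse, where 1.16% of all loci and 0.791% of loci above 5 did so.

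RPS25 (XLOC_005033), a small subunit protein known for its part in translation from viral internal entry sites, had the largest positive fold change, and its value depended on cow 1. Control cows had 137, 22.3, 41.4 and 13.15 CPM, and Methionine cows had 60.9, 117, 104 and 122 CPM. Cow 1 was above every Methionine cow, whereas the 3 other Control cows were below every Methionine cow. The log2 fold change was 0.86 (SE 0.56) with an FDR of 0.783 in the edgeR exact test. Without cow 1 it was 2.22 with an FDR of 0.00838, and RPS25 was then called, as were 1.44% of all loci. The quasi-likelihood test without cow 1 gave 2.22 with an FDR of 0.269 and called no locus of all. Control 3.2, left out, held 148 CPM, and with all 16 pools the fold change was 0.34. Counts of RPS25 ran from 84 to 1246 per pool, far above the limit of 3 counts.

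The other fold changes beyond those of most members overlapped between cows. RPS14, a small subunit protein whose loss of 1 copy underlies a form of myelodysplastic syndrome in humans, had cow means of 1478, 681, 714 and 1082 CPM in Control and 665, 706, 890 and 427 CPM in Methionine, a log2 fold change of −0.64 (SE 0.36) with an FDR of 0.699. RPS9 (−0.50) and RPL7A (−0.48) had FDRs of 0.878 and 0.789 in the same test. RPL7A held 391 to 501 CPM over Control cows and 212.5 to 433 CPM over Methionine cows. On the positive side, RPL10A, which forms the mobile stalk beside the tRNA exit site, had cow means of 81.4, 45.8, 71.7 and 88.6 CPM in Control and 52.9, 144, 116 and 97.6 CPM in Methionine. Its log2 fold change was 0.49 (SE 0.42) with an FDR of 0.940. RPL3 (0.27), RPL22 (0.23) and RPL24 (0.22) followed, each with an FDR of 0.974 or more. The cow means of RPL3 were 2694, 3373, 4215 and 2720 CPM in Control and 3885, 3340, 3941 and 3867 CPM in Methionine.

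**Figure D4:**
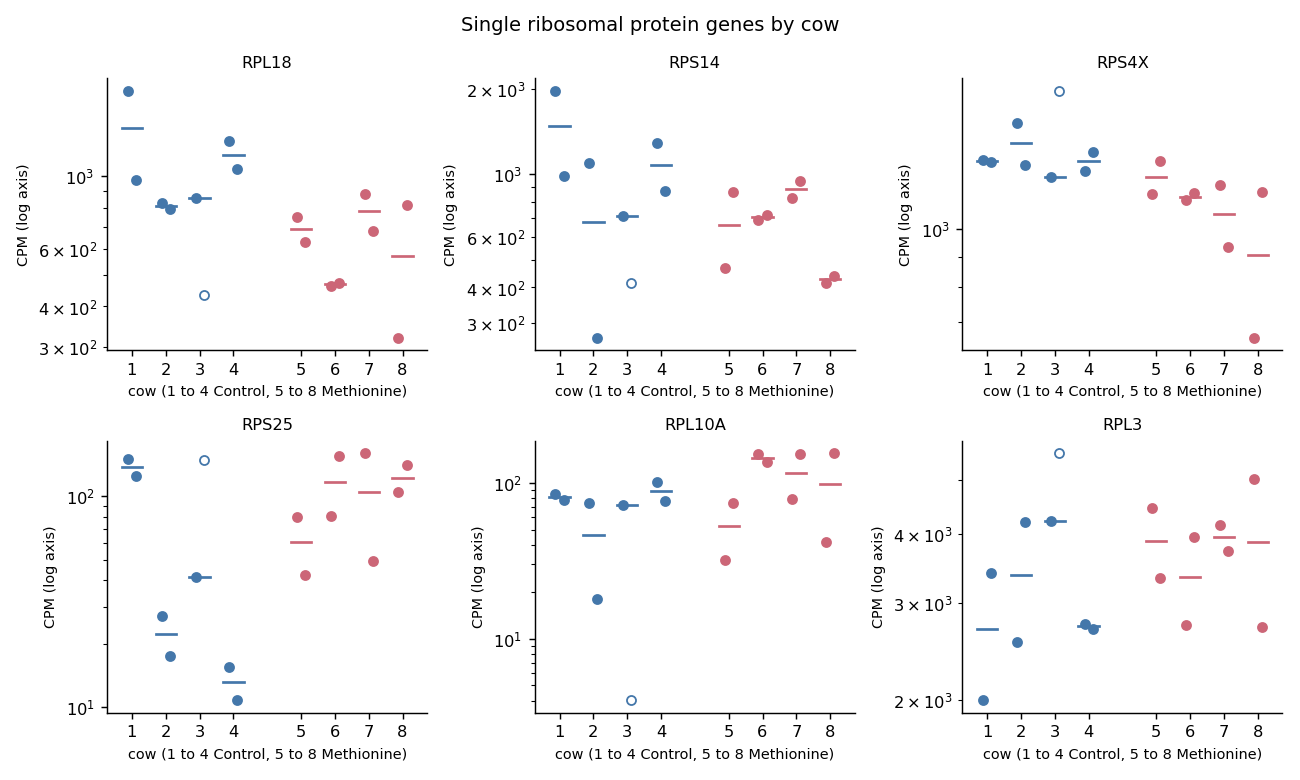
CPM (log axis) of RPL18, RPS14, RPS4X, RPS25, RPL10A and RPL3 in each pool (points) by cow, cows 1 to 4 Control and 5 to 8 Methionine, with a bar at each cow mean and an open circle for the pool left out. Cow means, taken without the pool left out, do not overlap between treatments for RPL18 and RPS4X. For RPS25, cow 1 (137 CPM) stands apart from the other Control cows (13.15 to 41.4 CPM).

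The stalk, the particle of RPL5 and RPL11, and RPS19, RPS6 and RPL23 were also looked at by name. The stalk gene RPLP0 had 683 ± 217 CPM in Control and 699 ± 171 CPM in Methionine (SD, n = 4 cows each), a log2 fold change of −0.0062 (SE 0.21). RPLP1, whose protein docks on RPLP0, had 2948 ± 1048 and 2363 ± 976 CPM and a log2 fold change of −0.31 (SE 0.36). RPL5 and RPL11 had log2 fold changes of 0.085 (SE 0.23) and 0.013 (SE 0.18). RPS19, mutated in Diamond-Blackfan anaemia, had 10337 ± 1673 CPM and 9918 ± 3990 CPM and a log2 fold change of −0.013 (SE 0.33). RPS6 was at −0.17 (SE 0.19) and RPL23 at −0.022 (SE 0.22). The FDR of these genes was 0.994 or more in the edgeR exact test.

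Paralogs made up a minor and uneven part of the counts of each pair. As a percent of paralog plus parent, RPL22L1 took 1.46 to 9.89% of its pair with RPL22, RPS27L took 2.48 to 28.5% with RPS27, RPL26L1 took 4.29 to 11.5% with RPL26 and RPS4Y1 took 2.98 to 9.09% with RPS4X. RPS27L is induced by p53, and RPS4Y1 bears the name of the Y-linked copy of RPS4X in primates. RPL3L and RPL10L had no counts, and 3 counts in a pool would make 0.00832 to 0.0209% of the pair with RPL3 and 0.0136 to 0.0333% of the pair with RPL10. RPL7L1, with 68.7 to 180 CPM, was not paired, since RPL7 was not analysed here. Paralog and parent differ in length and in the share of reads that map uniquely, so that only differences of the share between pools can be read.

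The paralog shares did not differ between treatments beyond the spread of the cows. Cow means of RPL22L1 were 4.27% ± 0.998 in Control and 4.74% ± 0.472 in Methionine (SD, n = 4 each), with p = 0.371 in an exact two-sided permutation test over the 70 assignments of cows. RPS27L was 12.4% ± 5.78 and 10.8% ± 4.73 (exact p = 0.714). RPL26L1 was 7.62% ± 0.929 and 7.80% ± 2.30 (exact p = 0.914), with cow 5 above all others. RPS4Y1 was 4.38% ± 1.31 and 4.44% ± 0.857 (exact p = 0.971). The adjusted p over the 4 pairs was 0.971 for each, and 0.0286 is the smallest p that 4 cows against 4 allow. The sign of the difference for RPS27L, RPL26L1 and RPS4Y1 turned when single cows were left out.

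**Figure D5:**
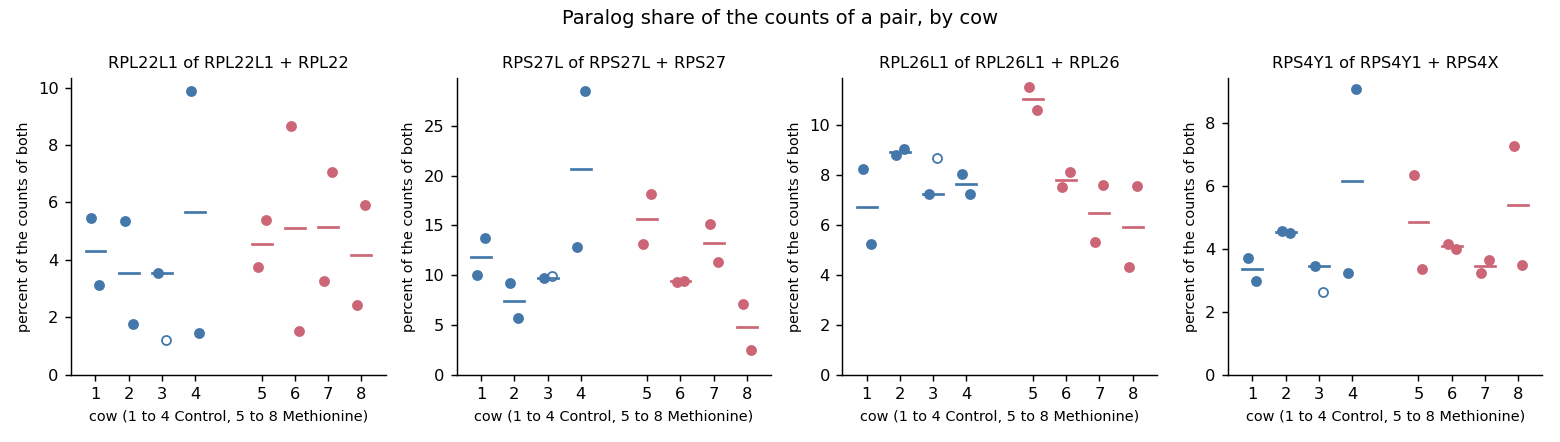
Percent of the counts of a pair that fell on the paralog, for RPL22L1 with RPL22, RPS27L with RPS27, RPL26L1 with RPL26 and RPS4Y1 with RPS4X, in each pool (points) by cow, cows 1 to 4 Control and 5 to 8 Methionine, with a bar at each cow mean and an open circle for the pool left out. Pools of the same cow lie far apart for RPL22L1, and the highest shares of RPS27L (28.5%) and RPS4Y1 (9.09%) are in Control 4.2.

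Other genes of the ribosome and of its assembly were taken from 3 lists. Ribosomal proteins and partners outside the name pattern included RPSA, FAU, RPL36AL and GNB2L1, the last encoding the scaffold protein RACK1 of the small subunit. None of these was called by the edgeR exact or quasi-likelihood test and 0 had an unadjusted p under 0.05, where the exact test called 1.05% of all loci and 8.54% had such a p. The log2 fold changes were −0.03 for RPSA, −0.09 for FAU, 0.02 for RPL36AL and −0.08 for GNB2L1. GNB2L1 had 2668 ± 150 CPM in Control and 2560 ± 60.5 CPM in Methionine (SD, n = 4 cows each).

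Of 14 listed translation genes, most of them with oligopyrimidine tracts, 13 were tested, 0 were called and 0 had an unadjusted p under 0.05 in the exact test, against the same 1.05% and 8.54% of all loci. The difference was positive for 3 and negative for 10, where it was positive for 46.5% of all loci, with a median log2 fold change of −0.079. The elongation factor genes EEF1D (−0.065), EEF2 (−0.16) and EEF1B2 (0.21) and the splicing factor gene HNRNPA1 (−0.093) had the highest mean CPM of the list. Of 50 listed ribosome biogenesis genes, 48 symbols matched 50 loci, of which 49 were tested. Of these, 0 were called in the edgeR exact test, 0 in the quasi-likelihood test and 2 had an unadjusted p under 0.05 in the exact test, where 1.05% of all loci were called and 8.54% had such a p. These were TAF1D (0.92, FDR 0.568), a factor of RNA polymerase I, and UTP14A (XLOC_021479, −0.92, FDR 0.377), which acts in small subunit processing. Both were named after their values were seen. A second locus named UTP14A (XLOC_010505, mean 1.21 CPM) was at −0.70, with an FDR of 0.998 in the exact test. Differences were positive for 22 loci and negative for 27, with a median of −0.059 and a range from −1.38 to 0.92. NCL (−0.20), DDX21 (−0.046), NOP56 (−0.29) and NOLC1 (−0.49), nucleolar proteins of ribosomal RNA synthesis and processing, had the highest mean CPM. The biogenesis genes varied more over the pools than the ribosomal protein genes, with a median SD of 0.80 against 0.42 on the log2 scale, and their mean CPM was lower. That difference was not tested.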

How the data were processed

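Pools of expanded blastocysts (2 per cow, 8 cows) were sequenced after amplification of their RNA. Per the study's methods and the submitters' processing notes, the authors aligned reads to bosTau7 with TopHat2 2.0.4, assembled transcripts with Cufflinks 2.0.2 and deposited raw counts per locus from HTSeq (version and strand setting not given in the sources used here). Without normalisation, these counts follow library size, and reads shared with pseudogenes or overlapping genes may be dropped. The depth was 5624126 to 7826542 counts per pool used, so that 3 counts equalled at most 0.533 CPM; such limits cover counting error only. Each locus listed in several rows (182 loci) was entered once.

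Following the study, loci with CPM summed over the 15 pools of at least 15 were tested with the exact test of edgeR 4.0.16 (TMM, tagwise dispersion, R 4.3.3) and Benjamini-Hochberg FDR. Alternatives were the quasi-likelihood test, DESeq2 1.42.0 (also the source of SEs), limma 3.58.1 voom with the cow as random effect, other scaling and filters, counts summed per cow, all 16 pools, the pool number as a block and each cow left out. The test treats pools as independent, so its p-values rest partly on the spread between pools of the same cow. The scripts of the fits were tested on simulated counts with less spread than these data. Shares were described per cow, and paralog shares tested by exact permutation (scipy 1.17.1). The relation of large to small subunit shares was to be tested but is given without p, as both are sums over chosen members.

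Members and lists were chosen with earlier results of these data known. Genes named are the 5 of each subunit with the highest mean CPM, the 5 with the largest and smallest SD, the 5 largest fold changes in each direction, the 5 smallest p, members whose cows do not overlap, those without counts, the stalk, RPL5, RPL11, RPS19, paralogs with parents and up to 4 genes of each list; others are named after their values were seen. Some genes that this rule names are not reported here.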

Additional observations from a re-analysis of the deposited data

Results flagged for a closer look

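Of the 86 groups of pools examined (the shares and the named members, each in 7 Control and 8 Methionine pools), 12 held a pool whose gap to its nearest neighbour was large for the group's range by Dixon's criterion. For independent, normally distributed values, chance gives about 1 in 20. Pools of a cow are not independent, and some members were named for their spread or fold change. That rate is therefore no measure of chance for these groups. The values are given without an explanation, which was not tested.

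Control 2.2 had a ratio of large to small subunit counts of 1.456, with the next Control pool at 1.16, and 17.8 CPM of RPL10A (17.796), with the next lowest Control pool at 71.7 CPM. Control 4.2 stood apart in both paralog measures, with RPS27L at 28.462% of its pair (next 13.7%) and RPS4Y1 at 9.089% of its pair (next 4.57%). The level of RPS4Y1 was also highest there, at 134.732 CPM (next 72.2 CPM). Control 1.1 had 269.396 CPM of RPS9 (next 148 CPM).

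Among Methionine pools, Methionine 8.2 had 5872.291 CPM of RPLP1 (next 2943 CPM) and 4987.309 CPM of RPS27 (next 2755 CPM). Methionine 7.1 had 469.556 CPM of RPS27L (next 284 CPM) and 14445.46 CPM of RPL36A (next 9412 CPM). Methionine 5.1 had 77.442 CPM of RPS4Y1 (next 51.8 CPM), and Methionine 6.2 had 1550.832 CPM of RPS6 (next 1082 CPM).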

How the results depend on the processing

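The number of ribosomal protein genes called was 0 under every alternative except without cow 1, when 1 (RPS25) was called by the exact test, a range of 0 to 1 over cows left out. The number with at least a 2-fold difference was 1 with limma voom and ran from 0 to 1 over cows left out (1 without cow 1 and without cow 5); in each case the gene was RPS25. The fold change of RPS25 rose to 2.22 without cow 1. That of RPL3 turned to −0.059 with all 16 pools. Paralog share differences, in percentage points, ran over cows left out from −3.32 to 1.09 for RPS27L (1.09 without cow 4, 0.334 without cow 8), from −0.900 to 0.808 for RPL26L1 (−0.120 without cow 1, −0.900 without cow 5) and from −0.280 to 0.658 for RPS4Y1 (−0.280, −0.242, −0.0758 and −0.253 without cow 1, 3, 5 and 8). With all 16 pools the RPL26L1 difference was −0.00057. The median SD of members was 0.48 with TMM-normalised totals, and their median correlation was 0.371 with TMM-normalised totals and 0.0357 over the ribosomal protein sum. The cause was not tested. The replicate block on pool number called 0 members; pool numbers only name pools. Of 344 values under alternatives, the other 326 kept their direction and call or stayed within the spread between cows. No pool used in the comparison gave a tested member fewer than 10 counts. With 4 cows per treatment, the permutation test cannot go below 0.0286.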

Other observations

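Control 3.2, which entered no comparison, held 25 of the 79 members below and 7 above the range of the 15 other pools, with 47 inside it, at a depth of 1745048 counts. Those above, named after their values were seen, included RPL6 (5908 CPM, where the other pools had 927 to 2635), RPL5 (2800 CPM), RPL3 (5591 CPM), RPS24 (11048 CPM), RPS4X (1703 CPM) and RPL37A (2996 CPM). Among those below were RPL10A at 4.01 CPM (7 counts), RPS9 at 11.5 CPM (20 counts) and RPS3 at 183 CPM (other pools 771 to 3320). The leukocyte marker PTPRC was at 159 CPM in this pool and at most 6.68 CPM in the others. The rest of the leukocyte markers did not follow it in Control 3.2. LAPTM5 was at 4.01, TYROBP at 1.72 and CD53 at 1.15 CPM, and the others, NKG7 and LCP1 among them, were at 0. The part of PTPRC in these values was not tested.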
